A study of Mus musculus with 11 samples.

Results

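The effect of losing hepatocyte *Xbp1* was compared between a standard chow diet and a high fat sugar (HFS) diet, gene by gene, to find transcripts whose response to the loss depended on what the mice ate. All 11 of the 11 hepatocyte RNA-Seq libraries entered one model, and every gene with enough reads was tested, which gave 13303 of the 54232 genes counted. The 4 groups were chow-fed Xbp1 fl/fl mice (3 libraries), chow-fed Xbp1 LKO mice (2 libraries), HFS-fed Xbp1 fl/fl mice (3 libraries) and HFS-fed Xbp1 LKO mice (3 libraries), all adult males of C57BL/6 background kept on their diet for up to 6 weeks. Both genotypes carried the floxed *Xbp1* allele, and Xbp1 LKO mice also carried Cre driven by the albumin promoter, which acts in hepatocytes and leaves the gene in place in other liver cells. The HFS diet was a Western diet with fructose and glucose added to the drinking water. Each chow library was made from 1 mouse and each HFS library from the pooled hepatocytes of 2 mice, so that the spread between libraries had different sources on the 2 diets. The interaction is given as a log2 difference, the genotype effect (Xbp1 LKO against Xbp1 fl/fl) on the HFS diet minus the genotype effect on chow. It is above 0 where expression in Xbp1 LKO hepatocytes, relative to Xbp1 fl/fl hepatocytes on the same diet, was higher with HFS than with chow.

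XBP1 is the transcription factor of the IRE1α branch of the unfolded protein response. Unfolded protein in the endoplasmic reticulum (ER) activates the RNase of IRE1α, which removes a short intron from the *Xbp1* transcript, and the protein made from the spliced transcript switches on genes for ER chaperones, protein translocation, ER-associated degradation and, in liver, lipid synthesis. Without XBP1, IRE1α becomes overactive and cleaves other transcripts at the ER membrane, a process called regulated IRE1-dependent decay (RIDD), while the PERK branch acts through translation control, ATF4 and CHOP. Hepatocytes make most plasma proteins and synthesise cholesterol, and sterol synthesis genes are held down when dietary sterol and lipid are plentiful.

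*Xbp1* (chromosome 11, 5520659 to 5525893, plus strand; GENCODE M21 annotation, GRCm38) was below its level in all 6 Xbp1 fl/fl libraries in each of the 5 Xbp1 LKO libraries. It fell in Xbp1 LKO hepatocytes, with a log2 fold change of -0.87 (SE 0.18, adjusted p = 0.018) on chow and of -1.26 (SE 0.16, adjusted p = 0.0025) on HFS, and its interaction was -0.39 (SE 0.23, 95% interval -0.90 to 0.12, unadjusted p = 0.12). These *Xbp1* values come from counts over the whole gene, which can include reads from exons that the deletion leaves in place. They therefore do not measure how complete the deletion was, or whether it differed between the diets. By quantitative PCR of an exon of the gene, the study reported almost no expression in knockout hepatocytes from chow-fed mice. Total counts were 19191032 to 23888401 per library. All 24 hepatocyte markers on the list used here, among them *Alb*, *Hnf4a* and *Asgr1*, had reads in every library. So did macrophage and endothelial markers such as *Clec4f* and *Stab2*, so this does not measure purity. Of the fat cell markers, *Lep* had no read in any library, and *Adipoq*, *Plin1* and *Retn* had 11, 3 and 1 in all. *Cidec*, *Cfd* and *Fabp4* had reads in every library (1571, 692 and 267 in all). The summed level of 19 macrophage markers was 25.5 to 108 CPM (normalised read count, relative to each library's TMM-scaled total) in chow-fed Xbp1 fl/fl, 29.5 to 43.4 in chow-fed Xbp1 LKO, 47.6 to 68.7 in HFS-fed Xbp1 fl/fl and 69.2 to 121 in HFS-fed Xbp1 LKO libraries. Chow-fed Xbp1 LKO library 2 stood farthest along the first principal component (38.5% of the variance over genes with a mean of at least 1 CPM), with a score of 42.3 against 19.3 in its only replicate. A lower level in a bulk sample can mean fewer cells of a type or less RNA per cell, and these cannot be told apart here.

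No gene passed the test of the interaction (0.0% called) when edgeR's quasi-likelihood F test was adjusted by Benjamini-Hochberg over the 13303 genes at a threshold of 0.05. The smallest adjusted p was 0.085, for *Tent5a*. At an unadjusted p under 0.05 there were 816 genes (6.13% of those tested), 491 with an interaction above 0 (3.69%) and 325 below 0 (2.44%). With library totals in place of TMM factors these were 363 above and 457 below 0. DESeq2, the tool that the study used, called 29 of 13299 genes (0.218%) with the same counts, 21 above 0 and 8 below. When each library was left out of DESeq2 in turn, the number called ran from 10 to 133, and 5 of the 29 genes were called in all 11 of those fits: *Tent5a*, *Zfp750*, *Ginm1*, *Cebpe* and *Hmgcs1*. The same edgeR fit called 632 genes (4.75%) for genotype on chow, 230 higher and 402 lower in Xbp1 LKO, and 543 genes (4.08%) for genotype on HFS, 256 higher and 287 lower. With library totals as the scaling, the median genotype effect of all genes moved to 0.33 on chow and 0.27 on HFS, and the calls were 2685 higher and 315 lower on chow and 1288 higher and 195 lower on HFS. Genotype effects are therefore given relative to the TMM scaling, under which these medians were close to 0.

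Genes with a genotype effect on both diets kept its direction. Of the 276 genes called for genotype on both diets, all 276 had the same direction on both, and the median size of their interaction was 0.22 on the log2 scale. The chow and HFS comparisons share no library, and across the 13303 genes their log2 fold changes had a Pearson's r of 0.584 and a Spearman's rank correlation of 0.443, given as a description because genes are not independent replicates. The precision sets what could be seen: the median SE was 0.27 for the interaction, 0.20 for the genotype effect on chow and 0.18 for that on HFS. For 7829 genes (58.9%) the 95% interval of the interaction lay within 1 log2 unit of 0, and for the other genes a difference of over 1 log2 unit between the diets lay within the interval. Among genes called on chow but not on HFS, 147 of 356 had an unadjusted p under 0.05 for the interaction and 125 of 356 had an interval within 1 log2 unit, so a call on one diet and not on the other did not by itself mark a difference between diets. Among the 267 genes called only on HFS these counts were 62 and 107. Over all genes the share at an unadjusted p under 0.05 was 6.13%. Genes called on only 1 diet were picked by the genotype effects that make up the interaction, so a higher share among them is built in.

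**Figure D1:**
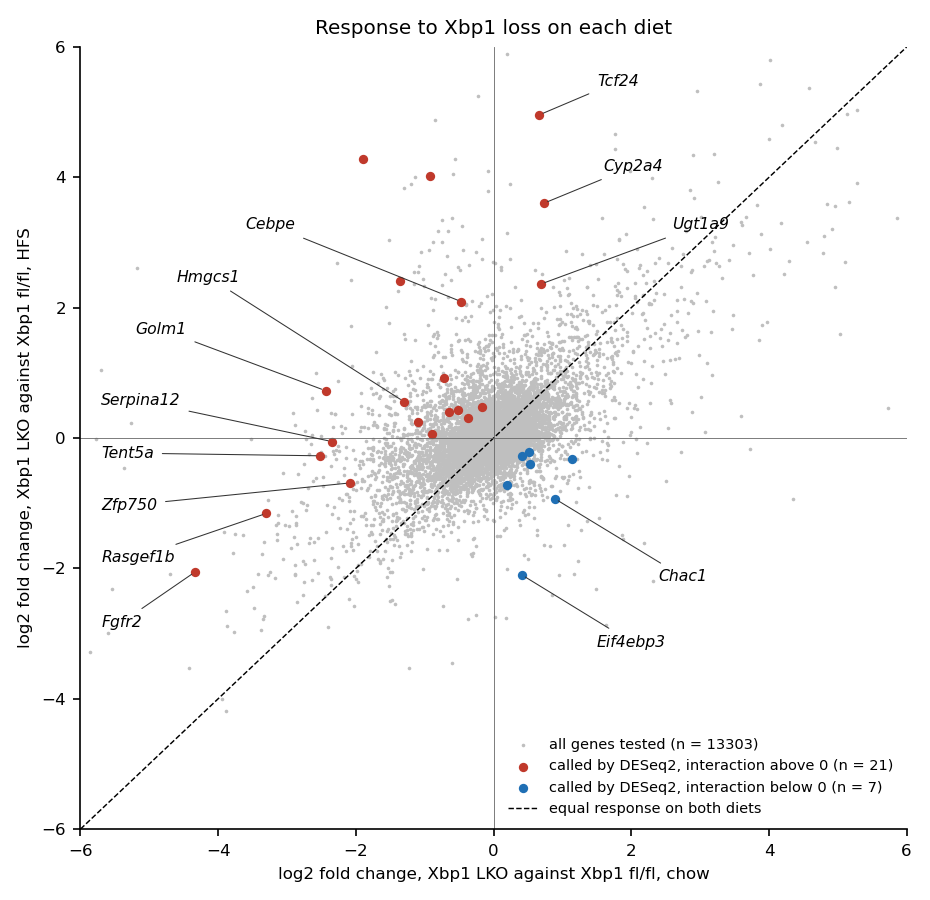
Log2 fold change of Xbp1 LKO against Xbp1 fl/fl hepatocytes on chow (horizontal axis) and on HFS (vertical axis) for the genes tested; the dashed line marks an equal response. Coloured points are the genes that DESeq2 called for the interaction, 21 above and 7 below the line; *Rnase2a*, with no read in chow-fed Xbp1 fl/fl libraries, is not drawn, and 23 genes lie outside the axes.

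Among the genes with the smallest p for the interaction, several fell in Xbp1 LKO hepatocytes on chow and differed less between the genotypes on HFS. *Tent5a* (chromosome 9, 85320439 to 85327348, minus strand), which encodes a cytoplasmic poly(A) polymerase, was measured at 8.55, 7.57 and 8.07 CPM in chow-fed Xbp1 fl/fl and 1.62 and 1.18 CPM in chow-fed Xbp1 LKO libraries, against 6.91, 7.13 and 5.93 CPM and 6.64, 4.95 and 4.95 CPM in HFS-fed Xbp1 fl/fl and Xbp1 LKO libraries. Both chow-fed Xbp1 LKO libraries lay below all 9 others, and the genotypes overlapped on HFS. *Tent5a* fell on chow (log2 fold change -2.52, SE 0.23, adjusted p = 0.0013), its log2 fold change on HFS was -0.27 (SE 0.18, adjusted p = 0.49), and its interaction was 2.25 (SE 0.29, 95% interval 1.62 to 2.88, unadjusted p = 6.4e-06), with an adjusted p = 3.1e-07 in DESeq2. Leaving out each library in turn moved the edgeR value over 2.04 to 2.49.

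*Zfp750* (chromosome 11, 121510978 to 121519333), a zinc finger factor known from epidermal differentiation, stood at 19.97, 18.7 and 18.4 CPM and 3.33 and 5.64 CPM on chow in Xbp1 fl/fl and Xbp1 LKO libraries and at 12.6, 13.4 and 11.8 CPM and 8.80, 6.92 and 7.78 CPM in the corresponding HFS-fed libraries. The genotypes did not overlap on either diet, and the gap was wider on chow. It fell on both diets, with log2 fold changes of -2.08 (adjusted p = 0.0014) on chow and -0.69 (adjusted p = 0.048) on HFS, with an interaction of 1.395 (SE 0.26, 95% interval 0.82 to 1.97, unadjusted p = 2.2e-04) and a DESeq2 adjusted p = 0.0027. *Fgfr2*, a receptor for fibroblast growth factors, followed the same order: 20.2, 30.6 and 36.9 CPM in chow-fed Xbp1 fl/fl, 1.92 and 0.961 CPM in chow-fed Xbp1 LKO, 24.7, 32.8 and 18.2 CPM in HFS-fed Xbp1 fl/fl and 8.96, 3.98 and 5.29 CPM in HFS-fed Xbp1 LKO libraries. It fell, with log2 fold changes of -4.34 (adjusted p = 0.0016) on chow and -2.05 (adjusted p = 0.0076) on HFS. The loss on HFS was thus smaller, with an interaction of 2.28 (SE 0.55, 95% interval 1.07 to 3.497, unadjusted p = 0.0016), called by DESeq2 (adjusted p = 0.020) and in 6 of the 11 DESeq2 fits without 1 library.

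*Rasgef1b*, an exchange factor for small GTPases, was at 15.1, 12.1 and 13.1 CPM in chow-fed Xbp1 fl/fl, 1.49 and 1.22 CPM in chow-fed Xbp1 LKO, 7.91, 7.79 and 7.59 CPM in HFS-fed Xbp1 fl/fl and 6.11, 2.45 and 1.92 CPM in HFS-fed Xbp1 LKO libraries. HFS-fed Xbp1 LKO library 1 was close to its controls and the other 2 were near the chow-fed Xbp1 LKO level. Its log2 fold change was -3.30 (adjusted p = 0.0036) on chow and -1.16 (adjusted p = 0.083) on HFS, and the interaction was 2.14 (SE 0.53, unadjusted p = 0.0019). *Serpina12*, the serpin vaspin, had 23.6, 33.6 and 62.4 CPM in chow-fed Xbp1 fl/fl, 4.82 and 10.9 CPM in chow-fed Xbp1 LKO, 63.3, 77.8 and 44.7 CPM in HFS-fed Xbp1 fl/fl and 77.4, 48.5 and 53.0 CPM in HFS-fed Xbp1 LKO libraries. It fell on chow (log2 fold change -2.35, adjusted p = 0.016), and on HFS the genotypes overlapped almost fully, with a log2 fold change of -0.05 (adjusted p = 0.97). The interaction of *Serpina12* was 2.29 (SE 0.57, unadjusted p = 0.0020). *Arap2*, a GTPase-activating protein, fell on chow (log2 fold change -0.89, adjusted p = 0.0098), from 20.1, 18.7 and 21.3 CPM to 11.3 and 10.3 CPM, while on HFS both genotypes lay between 9.91 and 14.6 CPM (interaction 0.96, SE 0.21, unadjusted p = 6.4e-04). *Golm1*, a Golgi membrane protein with at most 2.15 CPM in any library, had log2 fold changes of -2.44 (adjusted p = 0.037) on chow and 0.73 (adjusted p = 0.45) on HFS (interaction 3.17, SE 0.73, unadjusted p = 0.0011). DESeq2 called the interaction of *Serpina12*, *Rasgef1b*, *Arap2* and *Golm1*. Of the 11 DESeq2 fits without 1 library, *Serpina12* was called in 7, *Rasgef1b* in 4, and *Arap2* and *Golm1* in only 2 each.

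**Figure D2:**
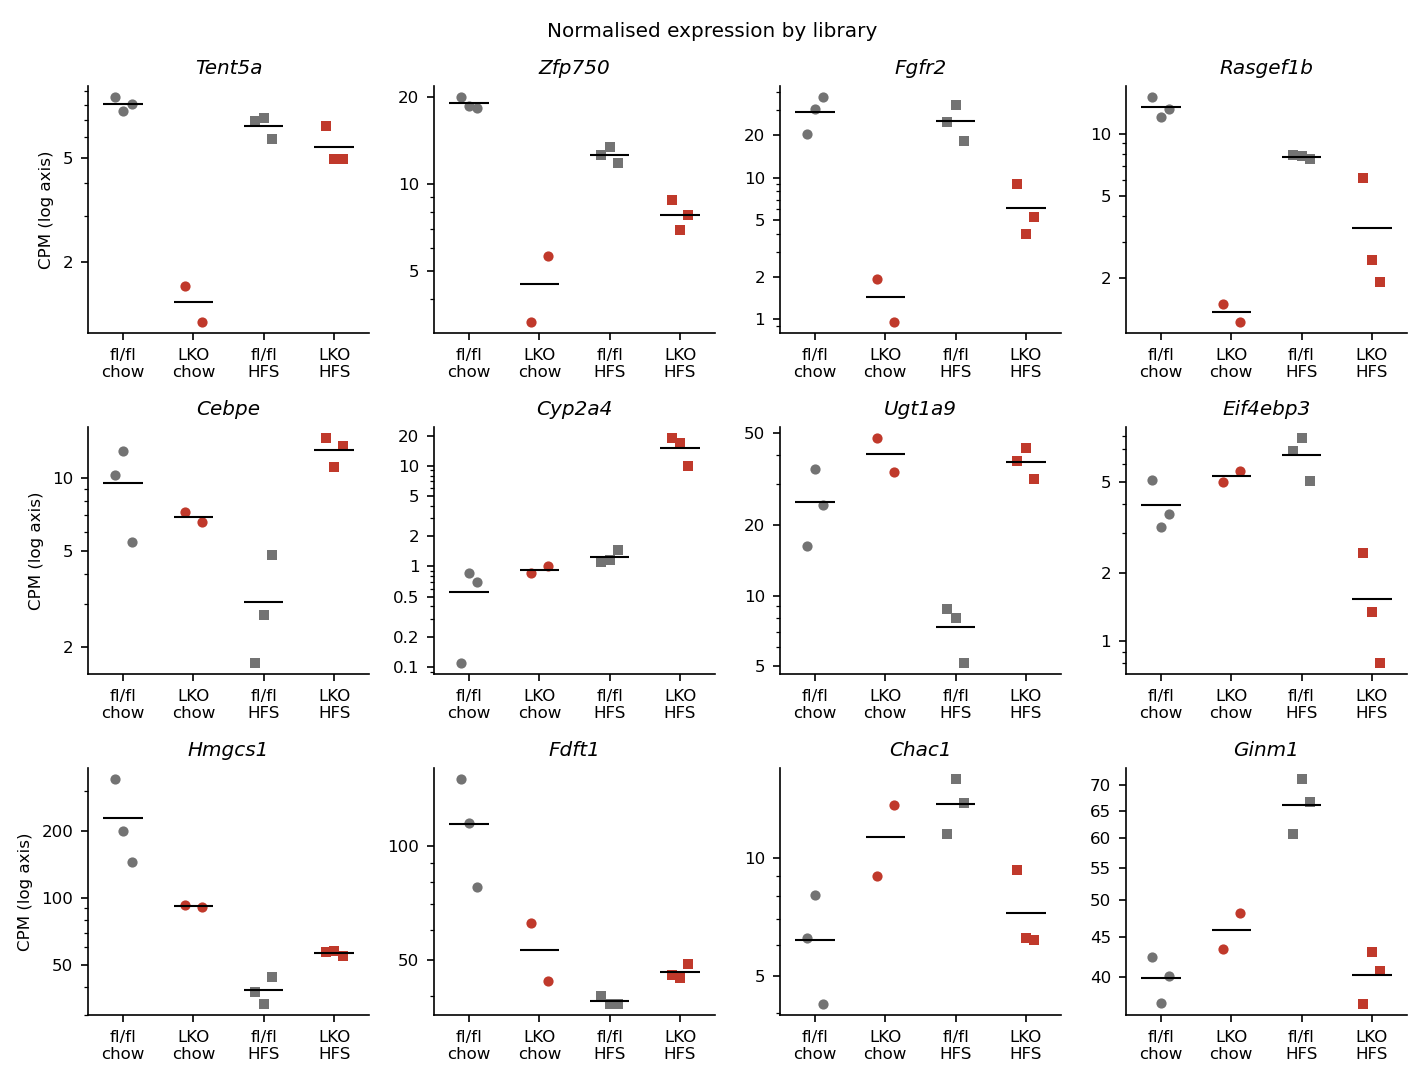
Normalised expression (CPM, log axis) of 12 genes in each library, by genotype and diet; grey points are Xbp1 fl/fl and red points Xbp1 LKO libraries, circles chow and squares HFS, and each line is the group mean. The upper row holds genes with the larger loss on chow, the middle row genes in which HFS-fed Xbp1 LKO libraries part from their controls, and the lower row genes whose genotype difference ran in opposite directions.

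A second set of genes differed between the genotypes on HFS and overlapped or nearly so on chow. *Cebpe* (chromosome 14, 54710360 to 54712174), which encodes C/EBPε, a transcription factor of granulocyte maturation, was at 10.3, 12.9 and 5.43 CPM in chow-fed Xbp1 fl/fl and 7.21 and 6.60 CPM in chow-fed Xbp1 LKO libraries. On HFS it was at 1.71, 2.70 and 4.80 CPM in Xbp1 fl/fl and 14.6, 11.1 and 13.6 CPM in Xbp1 LKO libraries, so that the low group was HFS-fed Xbp1 fl/fl. The transcript rose in Xbp1 LKO hepatocytes on HFS (log2 fold change 2.09, SE 0.36, adjusted p = 0.0093), its log2 fold change on chow was -0.47 (SE 0.38, adjusted p = 0.56), and the interaction was 2.56 (SE 0.53, 95% interval 1.39 to 3.72, unadjusted p = 4.9e-04), with a DESeq2 adjusted p = 0.0027. *Ugt1a9*, a UDP-glucuronosyltransferase that conjugates drugs and bilirubin-like substrates, had the same shape: 16.3, 35.02 and 24.5 CPM and 47.4 and 33.9 CPM on chow in Xbp1 fl/fl and Xbp1 LKO libraries, and 8.76, 7.99 and 5.14 CPM and 38.0, 43.2 and 31.6 CPM in HFS-fed ones. It rose in HFS-fed Xbp1 LKO hepatocytes (log2 fold change 2.36, adjusted p = 0.0023, interaction 1.68, SE 0.40, unadjusted p = 0.0015). DESeq2 called the interaction of *Ugt1a9*, and in 6 of the 11 fits without 1 library. The *Ugt1a* genes share their last exons, so the division of reads among them is uncertain.

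*Cyp2a4*, a steroid hydroxylase that is female-biased in mouse liver, was at 0.110, 0.867 and 0.697 CPM in chow-fed Xbp1 fl/fl, 0.853 and 1.00 CPM in chow-fed Xbp1 LKO and 1.10, 1.17 and 1.47 CPM in HFS-fed Xbp1 fl/fl libraries and at 18.8, 16.8 and 9.89 CPM in the HFS-fed Xbp1 LKO libraries. Its log2 fold change was 0.73 (SE 0.54, adjusted p = 0.51) on chow and 3.60 (SE 0.40, adjusted p = 0.0016) on HFS, and its interaction was 2.87 (SE 0.68, 95% interval 1.38 to 4.36, unadjusted p = 0.0013). DESeq2 called it (adjusted p = 0.0056), also in 10 of 11 fits without 1 library, the exception being chow-fed Xbp1 fl/fl library 2. *Cyp2a4* has near-identical neighbours in its family, so its count is uncertain. *Tcf24*, a basic helix-loop-helix factor, had counts of only 2, 3 and 0 in the HFS-fed Xbp1 fl/fl libraries against 29, 69 and 115 in the HFS-fed Xbp1 LKO libraries, and 14, 4 and 14 and 16 and 26 on chow. DESeq2 called the interaction of *Tcf24*, but in only 2 of the 11 fits without 1 library.

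In the other direction, *Eif4ebp3*, which encodes an inhibitor of the cap-binding factor eIF4E, was at 5.13, 3.18 and 3.63 CPM in chow-fed Xbp1 fl/fl, 4.99 and 5.59 CPM in chow-fed Xbp1 LKO, 6.81, 7.79 and 5.04 CPM in HFS-fed Xbp1 fl/fl and 2.44, 1.34 and 0.805 CPM in HFS-fed Xbp1 LKO libraries. All 3 HFS-fed Xbp1 LKO libraries lay below the other 8. The transcript fell on HFS (log2 fold change -2.10, adjusted p = 0.0079), against a log2 fold change of 0.41 (adjusted p = 0.60) on chow, and the interaction was -2.51 (SE 0.50, 95% interval -3.61 to -1.41, unadjusted p = 3.6e-04). *Tbc1d30*, a GTPase-activating protein for Rab GTPases, also fell on HFS (log2 fold change -1.55, adjusted p = 0.0025), from 33.5, 26.2 and 19.3 CPM to 9.90, 8.66 and 8.43 CPM, while the chow libraries lay between 20.7 and 30.9 CPM over both genotypes (interaction -1.25, SE 0.29, unadjusted p = 0.0011). *Ldb1*, an adaptor of LIM-domain transcription factors, had an interaction of -0.82 (SE 0.19, unadjusted p = 0.0012) and fell on HFS (log2 fold change -0.53, adjusted p = 0.045). DESeq2 called *Eif4ebp3*, except without chow-fed Xbp1 LKO library 2, and not *Tbc1d30* (adjusted p = 0.054) or *Ldb1* (adjusted p = 0.087).

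In 115 of the 13303 genes (0.864%), the genotypes did not overlap on either diet and lay in opposite orders, 62 with the Xbp1 LKO libraries lower on chow and higher on HFS and 53 the reverse. With 3 against 2 libraries on chow and 3 against 3 on HFS, a random order of libraries would give a share of about this size. Opposite orders by themselves therefore do not mark a difference between the diets. The same order without overlap on both diets was seen in 1483 genes (11.1%). Of the genes named here, 7 had the first pattern and 8 the second. *Cars* (cysteinyl-tRNA synthetase) was at 31.3, 29.9 and 35.4 CPM in chow-fed Xbp1 fl/fl, 25.4 and 24.2 CPM in chow-fed Xbp1 LKO, 23.8, 25.6 and 23.999 CPM in HFS-fed Xbp1 fl/fl and 30.5, 30.5 and 30.1 CPM in HFS-fed Xbp1 LKO libraries, with an interaction of 0.69 (SE 0.14, 95% interval 0.39 to 0.99, unadjusted p = 3.2e-04). The HFS-fed Xbp1 LKO libraries were thus close to the chow-fed controls. *Rtn4*, a reticulon that shapes ER tubules, ran from 57.6, 63.7 and 48.1 CPM to 43.7 and 34.8 CPM on chow and from 66.1, 68.8 and 70.3 CPM to 85.2, 105 and 87.1 CPM on HFS, listed as Xbp1 fl/fl and then Xbp1 LKO libraries (interaction 0.96, SE 0.20, unadjusted p = 5.2e-04). *Map4k4*, a serine/threonine kinase, went from 6.12, 5.49 and 5.68 CPM to 2.39 and 4.63 CPM on chow and from 2.95, 2.14 and 2.55 CPM to 5.38, 4.80 and 4.29 CPM on HFS (interaction 1.63, SE 0.36, unadjusted p = 8.5e-04). The polarity scaffold *Frmd4a* (1.85), the small thioredoxin-fold protein *Sh3bgrl* (0.64) and the sterol genes *Hmgcs1* and *Fdft1*, described with their pathway, made up the rest of these 7.

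Of the 8 genes with the reverse order, *Ginm1* (chromosome 10, 7767947 to 7792824), a membrane glycoprotein, was best resolved. It was at 42.4, 37.1 and 40.1 CPM and 43.4 and 48.2 CPM on chow in Xbp1 fl/fl and Xbp1 LKO libraries and at 60.6, 71.2 and 66.6 CPM and 37.0, 43.1 and 40.7 CPM in HFS-fed ones, so that HFS-fed Xbp1 fl/fl stood above every other group. It fell in Xbp1 LKO hepatocytes on HFS (log2 fold change -0.72, SE 0.10, adjusted p = 0.0037), with a log2 fold change of 0.20 (SE 0.11, adjusted p = 0.38) on chow and an interaction of -0.92 (SE 0.15, 95% interval -1.25 to -0.58, unadjusted p = 7.4e-05), and DESeq2 gave an adjusted p = 8.8e-04. *Chac1*, a glutathione-degrading enzyme and a target of ATF4 and CHOP, was at 6.23, 8.03 and 4.23 CPM and 9.002 and 13.8 CPM on chow and 11.6, 15.98 and 13.9 CPM and 9.33, 6.25 and 6.17 CPM on HFS in the same order. The HFS-fed Xbp1 fl/fl libraries were again high, and the interaction was -1.82 (SE 0.38, 95% interval -2.66 to -0.98, unadjusted p = 5.4e-04), called by DESeq2 (adjusted p = 0.012), also in 8 of 11 fits without 1 library. *Gne*, the enzyme that starts sialic acid synthesis, ran at 289, 276 and 257 CPM and 361 and 369.7 CPM on chow and 344, 336 and 318 CPM and 306, 253 and 262 CPM on HFS (interaction -0.70, SE 0.17, unadjusted p = 0.0016). *Dirc2*, a lysosomal membrane transporter, rose in Xbp1 LKO hepatocytes on chow (log2 fold change 0.51, adjusted p = 0.018), from 51.0, 49.0 and 49.99 CPM to 67.4 and 74.8 CPM, against a log2 fold change of -0.21 (adjusted p = 0.26) on HFS (interaction -0.72, SE 0.14, unadjusted p = 2.5e-04), and DESeq2 called it except without chow-fed Xbp1 LKO library 2. The other members of this group were the RNA helicase *Dqx1* (interaction -0.92), the endosomal tethering subunit *Vps52* (-0.68), *Fam3a* (-0.89) and the oxysterol receptor *Nr1h2* (-0.41).

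*Arhgef40*, a guanine nucleotide exchange factor, rose on chow (log2 fold change 1.13, adjusted p = 0.024) and overlapped between genotypes on HFS (interaction -1.46, SE 0.33, unadjusted p = 8.7e-04). *Rnase2a*, an eosinophil-type ribonuclease with near-identical family members, had counts of 0, 0 and 0 in chow-fed Xbp1 fl/fl, 24 and 73 in chow-fed Xbp1 LKO, 55, 36 and 15 in HFS-fed Xbp1 fl/fl and 5, 63 and 10 in HFS-fed Xbp1 LKO libraries. DESeq2 called it, but with no read in 1 group the size of the interaction has no meaning and is not given. The predicted gene *Gm23935* had an interaction of -3.36 (SE 0.82, unadjusted p = 0.0016), with 11.2 and 32.4 CPM in chow-fed Xbp1 LKO and 10.9, 8.60 and 31.4 CPM in HFS-fed Xbp1 fl/fl libraries, so that its libraries differed widely within a group.

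Of the enzymes of cholesterol synthesis, 7 of 20 fell in Xbp1 LKO hepatocytes on chow and 1 of 20 on HFS. All 20 listed enzymes of the pathway, which begins with acetoacetyl-CoA thiolase (*Acat2*), were tested, and 18 had an interaction above 0, with a list median of 0.68 against 0.01 for all genes, of which 51.2% were above 0. None passed the adjusted test in edgeR, and 10 of 20 had an unadjusted p under 0.05 with an interaction above 0 (3.69% of all genes). DESeq2 called *Hmgcs1* and *Fdft1*, but *Fdft1* in only 4 of the 11 DESeq2 fits without 1 library. The 7 called on chow (3.02% of all genes were called lower) were *Acat2*, *Hmgcs1*, *Pmvk*, *Fdft1*, *Lss*, *Msmo1* and *Sc5d*, and the 1 called on HFS (2.16%) was *Pmvk*. The list median of the genotype effect was -1.07 on chow and -0.33 on HFS.

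*Hmgcs1*, the cytosolic HMG-CoA synthase that feeds the mevalonate pathway, was at 339, 199 and 145 CPM in chow-fed Xbp1 fl/fl and 93.3 and 91.4 CPM in chow-fed Xbp1 LKO libraries. With HFS it was at 37.8, 33.6 and 44.3 CPM in Xbp1 fl/fl and 57.3, 58.1 and 55.1 CPM in Xbp1 LKO libraries. The Xbp1 LKO libraries lay between the controls of the 2 diets, below them on chow and above them on HFS. It fell on chow (log2 fold change -1.30, SE 0.28, adjusted p = 0.024), its log2 fold change on HFS was 0.56 (SE 0.24, adjusted p = 0.26), and the interaction was 1.86 (SE 0.37, 95% interval 1.05 to 2.67, unadjusted p = 3.5e-04), with a DESeq2 adjusted p = 0.0024. Put by diet, the log2 difference of HFS from chow was -2.56 in Xbp1 fl/fl and -0.70 in Xbp1 LKO hepatocytes. *Fdft1* (squalene synthase) had 149.99, 115 and 77.7 CPM in chow-fed Xbp1 fl/fl, 62.5 and 43.8 CPM in chow-fed Xbp1 LKO, 40.1, 38.2 and 38.3 CPM in HFS-fed Xbp1 fl/fl and 45.5, 44.6 and 48.8 CPM in HFS-fed Xbp1 LKO libraries. By mean, its groups stood between each other as those of *Hmgcs1* did, with an interaction of 1.36 (SE 0.31, 95% interval 0.68 to 2.03, unadjusted p = 9.5e-04). *Sc5d* (sterol C5-desaturase) fell on chow (log2 fold change -0.96, adjusted p = 0.012), from 587, 651 and 668 CPM to 384 and 267 CPM, and overlapped between genotypes on HFS (interaction 0.78, SE 0.23, unadjusted p = 0.0061).

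The promoter of *Hmgcs1* is shown because sterol synthesis genes are classically driven by SREBP factors through sterol regulatory elements, and *Hmgcs1* had the smallest p for the interaction in the pathway. The sequence is from RefSeq (GRCm38.p6), chr13:119690101-119690400 on the plus strand, from 250 bases before to 50 bases after the annotated start, and the capitals mark the only match to the sterol regulatory element letters TCACNCCAC on either strand, 137 bases before the start.
Hmgcs1: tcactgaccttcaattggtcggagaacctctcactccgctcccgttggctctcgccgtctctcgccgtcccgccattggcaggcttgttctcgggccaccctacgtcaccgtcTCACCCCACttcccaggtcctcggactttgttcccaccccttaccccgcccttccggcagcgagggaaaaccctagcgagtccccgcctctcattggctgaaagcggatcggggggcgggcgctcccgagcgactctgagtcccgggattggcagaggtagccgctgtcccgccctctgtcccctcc
Of the 20 enzymes, 15 had a promoter in the reference used, 18 promoters in all, and *Hmgcs1* alone held these letters. They occur in 1.24% of 32851 promoters of the same length, so the match is a description of this window, and the motif was picked after the expression values had been seen. *Fdft1* and *Sqle* had no promoter in the reference.

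Among the other enzymes, the interaction was largest in *Sqle* (squalene epoxidase), which was at 187, 116 and 71.3 CPM and 35.1 and 35.5 CPM on chow in Xbp1 fl/fl and Xbp1 LKO libraries and at 3.19, 7.13 and 2.35 CPM and 8.47, 2.42 and 6.56 CPM in HFS-fed ones. Its interaction was 2.28 (unadjusted p = 0.0083). *Dhcr7*, which acts near the end of the pathway, had an interaction of 0.27 (unadjusted p = 0.61). Both genes were named after their values were seen. The mean log2 expression of the 20 enzymes, as a difference from its mean over all libraries, was 1.58, 1.18 and 0.84 for chow-fed Xbp1 fl/fl and 0.46 and 0.06 for chow-fed Xbp1 LKO libraries, then -0.48, -0.56 and -0.63 in the HFS-fed Xbp1 fl/fl and -0.54, -1.02 and -0.88 in the HFS-fed Xbp1 LKO libraries. All 5 chow libraries lay above all 6 HFS libraries, and the genotypes did not overlap on chow but did on HFS. Leaving out each library in turn gave a list median of 0.46 to 1.00, and the number at an unadjusted p under 0.05 ran from 5 (without chow-fed Xbp1 LKO library 2) to 12.

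**Figure D3:**
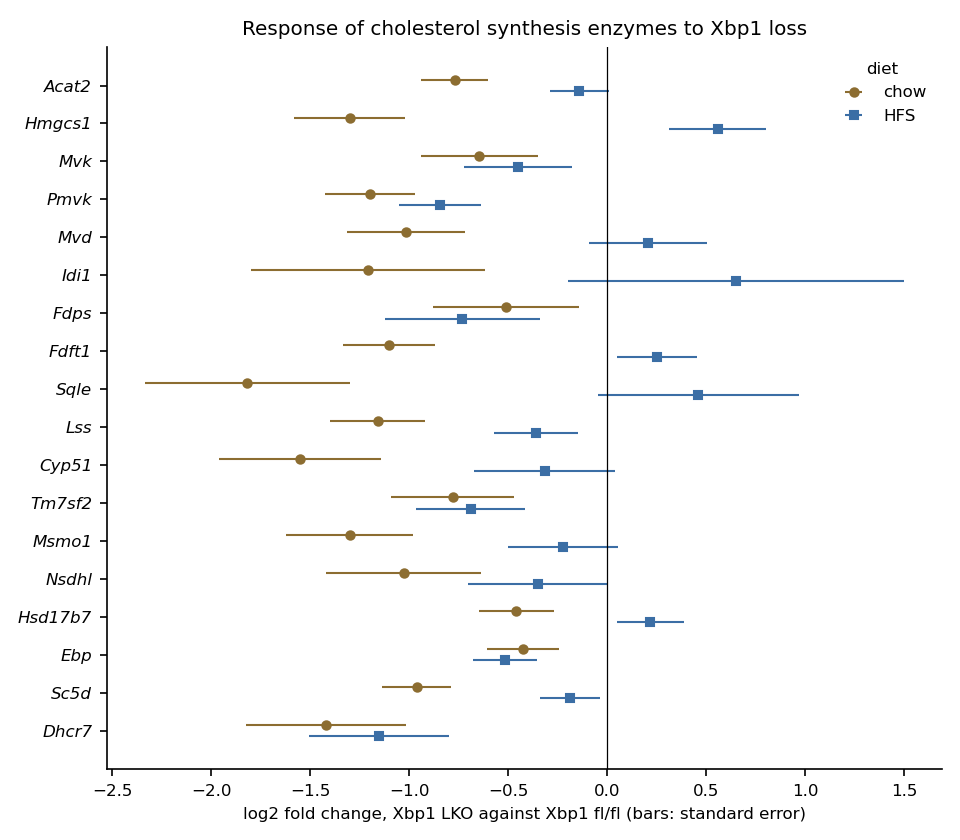
Log2 fold change of Xbp1 LKO against Xbp1 fl/fl hepatocytes for 18 cholesterol synthesis enzymes on chow (brown circles) and on HFS (blue squares), with the standard error as bars. All 18 values drawn are below 0 on chow, and on HFS *Hmgcs1*, *Mvd*, *Idi1*, *Fdft1*, *Sqle* and *Hsd17b7* lie above 0 without passing the test.

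Genes around this pathway were more evenly split. Of 17 SREBP regulators and LDL receptor axis genes, 10 had an interaction above 0 (median 0.15). With each library left out in turn this median ran from -0.11 (without chow-fed Xbp1 fl/fl library 1, 8 of 17 above 0) to 0.34 (without chow-fed Xbp1 fl/fl library 3, 11 of 17 above 0), and it was below 0 without chow-fed Xbp1 fl/fl library 1, chow-fed Xbp1 LKO library 2 or HFS-fed Xbp1 LKO library 1. *Insig1*, which retains SREBPs in the ER and is itself an SREBP target, had 244, 204 and 213 CPM in chow-fed Xbp1 fl/fl, 98.0 and 72.0 CPM in chow-fed Xbp1 LKO, 98.3, 72.9 and 102 CPM in HFS-fed Xbp1 fl/fl and 95.7, 44.7 and 54.3 CPM in HFS-fed Xbp1 LKO libraries. It fell on chow (log2 fold change -1.37, adjusted p = 0.023) and had an interaction of 0.88 (SE 0.38, unadjusted p = 0.039). *Abcg8*, a canalicular sterol exporter, fell on HFS (log2 fold change -1.11, adjusted p = 0.021), where the controls stood at 368, 413 and 551 CPM (interaction -0.73, SE 0.34, unadjusted p = 0.051). For fatty acid and triglyceride synthesis, 11 of 21 genes were above 0 (median 0.04), 6 fell on chow (3.02% of all genes) and 2 on HFS (2.16%), and *Gpam*, the first acyltransferase of glycerolipid synthesis, alone had an unadjusted p under 0.05 (interaction 0.50, SE 0.18, unadjusted p = 0.016). The interactions of *Acss2* (0.65, unadjusted p = 0.066) and *Lpin1* (-1.72, unadjusted p = 0.062) had intervals that included 0. The median of the fatty acid list ran from -0.05 (without HFS-fed Xbp1 fl/fl library 2, 9 of 21 above 0) to 0.52 (without chow-fed Xbp1 LKO library 1, 16 of 21 above 0) as libraries were left out, with 9 of the 21 genes at an unadjusted p under 0.05 in the latter fit. It was below 0 without chow-fed Xbp1 fl/fl library 2, chow-fed Xbp1 LKO library 2 or HFS-fed Xbp1 fl/fl library 2.

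Of 22 lipid uptake and lipid droplet genes, 13 were above 0 (median 0.06), and the median ran from -0.04 (without chow-fed Xbp1 LKO library 2, 10 of 22 above 0) to 0.26 (without chow-fed Xbp1 LKO library 1, 13 of 22 above 0) as libraries were left out, below 0 without chow-fed Xbp1 LKO library 2, HFS-fed Xbp1 fl/fl library 1 or HFS-fed Xbp1 LKO library 1. *Hsd17b13*, a lipid droplet enzyme, was at 322, 429 and 465 CPM and 85.3 and 25.4 CPM on chow in Xbp1 fl/fl and Xbp1 LKO libraries and at 262, 323 and 309 CPM and 188, 137 and 65.6 CPM in HFS-fed ones, without overlap on either diet. It fell on chow (log2 fold change -2.87, adjusted p = 0.011), with an interaction of 1.68 (SE 0.63, unadjusted p = 0.021). The lipase *Pnpla2* had an interaction of -0.51 (SE 0.21, unadjusted p = 0.035), and *Lpl* one of -1.22 (SE 0.63, unadjusted p = 0.077). Among 30 fatty acid oxidation and PPARα target genes 22 were above 0 (median 0.17, 0.09 to 0.26 as libraries were left out), and *Cyp4a31*, a fatty acid ω-hydroxylase of a family with similar members, rose on HFS (log2 fold change 1.68, adjusted p = 0.014) with a log2 fold change of 0.08 (adjusted p = 0.93) on chow and an interaction of 1.59 (SE 0.46, unadjusted p = 0.0053). The hepatokine *Fgf21* had an interaction of 1.53 with an interval of -0.75 to 3.82, and *Acot4* one of 0.79 (-0.38 to 1.95). Bile acid synthesis and transport genes were split, 12 of 22 above 0 (median 0.01, -0.10 to 0.10 as libraries were left out, below 0 without chow-fed Xbp1 fl/fl library 2 or 3, chow-fed Xbp1 LKO library 2, HFS-fed Xbp1 fl/fl library 2 or HFS-fed Xbp1 LKO library 1 or 2), with *Cyp7b1* (oxysterol 7α-hydroxylase) at -1.09 (SE 0.41, unadjusted p = 0.021). *Cyp7a1*, the rate-limiting enzyme of bile acid synthesis, spread between 34.3 and 459 CPM over the libraries, and its interaction of -0.79 had an interval of -2.89 to 1.32. *Baat* (0.27) and *Abcb4* (-0.35) had intervals that included 0.

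Cell cycle genes had interactions mostly above 0. All 22 listed cell cycle and DNA replication genes were tested, 20 had an interaction above 0 and 11 had an unadjusted p under 0.05 in that direction (3.69% of all genes), with a list median of 1.35. On HFS 2 of the 22 rose in Xbp1 LKO hepatocytes (1.92% of all genes were called higher), *Mki67* and *Ccna2*, and on chow none of them was called. *Mki67*, the proliferation marker Ki-67, was at 0.496, 5.43 and 0.846 CPM in chow-fed Xbp1 fl/fl, 1.45 and 1.09 CPM in chow-fed Xbp1 LKO, 0.572, 0.865 and 0.392 CPM in HFS-fed Xbp1 fl/fl and 7.37, 6.66 and 2.68 CPM in HFS-fed Xbp1 LKO libraries. Chow-fed Xbp1 fl/fl library 2 lay within the range of the HFS-fed Xbp1 LKO libraries. *Mki67* rose on HFS (log2 fold change 3.18, SE 0.78, adjusted p = 0.046), with an interaction of 3.99 (SE 1.15, 95% interval 1.48 to 6.50, unadjusted p = 0.0048).

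*Ccnb2*, a mitotic cyclin, had 0.496, 3.93 and 0.747 CPM and 0.939 and 0.655 CPM on chow in Xbp1 fl/fl and Xbp1 LKO libraries and 0.524, 0.356 and 0.343 CPM and 3.18, 2.90 and 1.15 CPM in HFS-fed ones (interaction 3.64, SE 1.07, unadjusted p = 0.0057), and *Ccna2* had an interaction of 3.13 (SE 0.92, unadjusted p = 0.0055). DESeq2 called the interaction of 3 spindle genes outside the list, *Hmmr*, *Ckap2l* and *Knstrn*. Counts of *Hmmr* were 5, 39 and 7 in chow-fed Xbp1 fl/fl, 11 and 12 in chow-fed Xbp1 LKO, 2, 3 and 2 in HFS-fed Xbp1 fl/fl and 65, 67 and 19 in HFS-fed Xbp1 LKO libraries, again with chow-fed Xbp1 fl/fl library 2 apart from its replicates. None of the 3 was called by DESeq2 without that library. The list median without it was 0.86, and leaving out each of the others gave up to 1.65. With a minimum count of 100 in the filter, which left 10 of the 22 members, their median was 0.36. The replication factors *Pcna* (interaction -0.12) and *Mcm7* (-0.30) were the 2 members below 0, and both were named after their values were seen.

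Markers of non-parenchymal liver cells had the same direction of interaction as the mitotic genes. All 16 tested stellate cell markers were above 0 (median 1.53, 5 at an unadjusted p under 0.05, as were 3.69% of all genes with an interaction above 0), as were all 20 endothelial markers (median 0.93, 2 such genes) and 18 of 19 macrophage markers (median 1.23, 2 such genes). None of them was called for genotype on either diet. The summed level of the stellate cell markers was 20.6 to 68.5 CPM in chow-fed Xbp1 fl/fl, 15.1 to 17.3 CPM in chow-fed Xbp1 LKO, 35.1 to 64.0 CPM in HFS-fed Xbp1 fl/fl and 40.6 to 83.5 CPM in HFS-fed Xbp1 LKO libraries. For the endothelial markers these ranges were 91.3 to 226, 53.1 to 68.9, 168 to 293 and 137 to 246 CPM. The chow-fed Xbp1 LKO libraries were the lowest for both lists. Chow-fed Xbp1 fl/fl library 1 held the upper end of its group for all 3 lists, and leaving it out gave medians of 0.63 for stellate cell markers (13 of 15 then tested above 0), 0.45 for endothelial markers (19 of 20) and 0.25 for macrophage markers (11 of 19). In those fits 2 stellate, 0 endothelial and 0 macrophage markers had an unadjusted p under 0.05. The endothelial median was 0.46 without HFS-fed Xbp1 LKO library 1, again with no such gene. The part of these cells in the mitotic, interferon and other results was not tested.

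Among single markers, *Reln* (reelin, made by stellate cells) was at 8.11, 5.20 and 7.22 CPM in chow-fed Xbp1 fl/fl, 3.24 and 2.403 CPM in chow-fed Xbp1 LKO, 12.8, 5.85 and 9.31 CPM in HFS-fed Xbp1 fl/fl and 22.1, 10.04 and 9.16 CPM in HFS-fed Xbp1 LKO libraries (interaction 1.84, SE 0.56, unadjusted p = 0.0073). *Lrat*, the retinol-esterifying enzyme of stellate cells, had an interaction of 1.98 (SE 0.65, unadjusted p = 0.010) and the collagen gene *Col3a1* one of 2.39 (SE 0.83, unadjusted p = 0.015). *Col1a1* was at most 0.744 CPM in any library, with an interval of -1.94 to 5.01, and *Acta2* had 5 reads in all libraries together and was not tested. The sinusoidal endothelial receptor *Flt4* had an interaction of 1.52 (SE 0.63, unadjusted p = 0.035), *Emcn* one of 2.99 (SE 1.35, unadjusted p = 0.048) and *Oit3* one of 1.30 (SE 0.63, unadjusted p = 0.061). Macrophage genes *Cd14* (2.26, SE 0.86, unadjusted p = 0.022), *Spi1* (2.68, SE 1.20, unadjusted p = 0.047) and *Cd68* (1.31, SE 0.60, unadjusted p = 0.050) reached at most 1.38, 0.997 and 2.61 CPM in any library. Of 15 cholangiocyte markers 7 were tested and 6 were above 0 (median 0.76), with *Spp1* at 1.83 (SE 0.82, unadjusted p = 0.046), *Sox9* at 0.76 and *Ddr1* at 1.23. Their median was 0.25 without chow-fed Xbp1 LKO library 2 and 0.34 without chow-fed Xbp1 fl/fl library 2. Of the 7 tested cholangiocyte markers, 2 were called lower on chow (3.02% of all genes). On HFS 1 was called higher (1.92%) and 1 lower (2.16%), the higher one being *Ddr1* (log2 fold change 3.05, adjusted p = 0.014). The duct markers *Krt19*, *Krt7* and *Epcam*, with 13, 10 and 33 reads in all libraries together, were not tested. Too few markers of lymphocytes (5 of 19 tested), neutrophils and red cells (3 of 12) and adipocytes (3 of 7) passed the filter to describe those lists, whose medians were 0.29, 0.23 and 0.37. Hepatocyte markers themselves had a median interaction of 0.11, 15 of 24 above 0, and it was below 0 without chow-fed Xbp1 LKO library 2 or HFS-fed Xbp1 LKO library 1 (lowest -0.04 (without HFS-fed Xbp1 LKO library 1, 12 of 24 above 0)).

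Interferon-stimulated genes had interactions mostly above 0. Of 41 tested genes 37 had an interaction above 0, with a median of 0.45 and 5 at an unadjusted p under 0.05 (3.69% of all genes in that direction). The list median of the genotype effect was -0.47 on chow, where 3 genes fell (3.02% of all genes), and 0.04 on HFS, where none fell and 1 rose (1.92% of all genes). *Ifi27*, a small interferon-induced membrane protein, was at 109, 101 and 96.8 CPM in chow-fed Xbp1 fl/fl, 67.7 and 62.7 CPM in chow-fed Xbp1 LKO, 84.2, 93.9 and 95.7 CPM in HFS-fed Xbp1 fl/fl and 156, 92.2 and 114 CPM in HFS-fed Xbp1 LKO libraries. The chow-fed Xbp1 LKO libraries were the lowest of all, and HFS-fed Xbp1 LKO library 1 the highest. Its interaction was 1.05 (SE 0.25, 95% interval 0.52 to 1.59, unadjusted p = 0.0012), called by DESeq2 (adjusted p = 0.035) and in 4 of the 11 DESeq2 fits without 1 library.

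*Trim30a*, which restrains inflammatory signalling, fell on chow (log2 fold change -1.55, adjusted p = 0.020), from 1.88, 1.56 and 1.34 CPM to 0.683 and 0.393 CPM, and lay between 2.11 and 2.44 CPM in the 6 HFS libraries (interaction 1.63, SE 0.40, unadjusted p = 0.0017). *Ifit3b* had an interaction of 1.38 (SE 0.56, unadjusted p = 0.030) at no more than 1.10 CPM in any library. Leaving out each library in turn gave a list median of 0.17 to 0.60 and 2 to 9 genes at an unadjusted p under 0.05, the lowest of both without chow-fed Xbp1 fl/fl library 1, which also held the most macrophage marker RNA of its group. For 24 antigen presentation and interferon-γ genes the median was 0.09 with 18 above 0, and it ran from 0.01 (without HFS-fed Xbp1 fl/fl library 1, 13 of 24 above 0) to 0.21 (without chow-fed Xbp1 fl/fl library 3, 22 of 24 above 0) as libraries were left out. *Iigp1*, an interferon-γ-induced GTPase, was at 299, 340.3 and 389 CPM in chow-fed Xbp1 fl/fl, 226 and 153 CPM in chow-fed Xbp1 LKO, 317, 354 and 312 CPM in HFS-fed Xbp1 fl/fl and 326, 288 and 265 CPM in HFS-fed Xbp1 LKO libraries (interaction 0.69, SE 0.24, unadjusted p = 0.015). The related GTPases *Igtp* (0.62) and *Irgm2* (0.44) had intervals that included 0.

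In the branch of PERK, ATF4 and CHOP the interaction leaned the other way without passing the test. Of 27 tested genes 19 were below 0 (median -0.25), and 2 of these had an unadjusted p under 0.05, *Chac1* and *Cebpb* (2.44% of all genes in that direction). On chow 9 of the 27 rose in Xbp1 LKO hepatocytes (1.73% of all genes were called higher) and on HFS 6 rose (1.92% of all genes). *Cebpb*, which encodes C/EBPβ, was at 53.5, 43.1 and 37.4 CPM and 50.8 and 87.6 CPM on chow in Xbp1 fl/fl and Xbp1 LKO libraries and 46.6, 52.5 and 69.8 CPM and 49.6, 34.6 and 34.2 CPM in HFS-fed ones (interaction -1.14, SE 0.35, unadjusted p = 0.0067). *Ddit3* (CHOP) was at 4.52, 5.89 and 6.67 CPM in chow-fed Xbp1 fl/fl, 23.6 and 132 CPM in chow-fed Xbp1 LKO, 5.10, 2.95 and 4.996 CPM in HFS-fed Xbp1 fl/fl and 15.8, 13.5 and 44.5 CPM in HFS-fed Xbp1 LKO libraries, so that 1 chow-fed Xbp1 LKO library exceeded its only replicate several times over. *Ddit3* rose on both diets, with log2 fold changes of 3.77 (SE 0.66, adjusted p = 0.0098) on chow and 2.50 (SE 0.62, adjusted p = 0.048) on HFS, and its interaction was -1.28 (SE 0.89, 95% interval -3.22 to 0.67, unadjusted p = 0.18). That library, number 2, decided the sign of the list: the median was -0.25 with it and 0.22 without it, and the mean log2 expression of the list was 0.18 and 0.99 in libraries 1 and 2 of chow-fed Xbp1 LKO mice.

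*Ppp1r15a* (GADD34) had an interaction of -0.42 (SE 0.21, unadjusted p = 0.065), and *Ppp1r15b* (CReP), which is a RIDD target, fell alike on both diets, with log2 fold changes of -0.83 (adjusted p = 0.0074) on chow and -0.78 (adjusted p = 0.0054) on HFS, with an interval of the interaction of -0.34 to 0.44. *Atf4* itself had an interaction of 0.04 (-0.29 to 0.38). The death receptor gene *Tnfrsf10b*, a CHOP target, was at 0.221, 0.347 and 0.149 CPM in chow-fed Xbp1 fl/fl, 0.640 and 1.53 CPM in chow-fed Xbp1 LKO, 0.238, 0.305 and 0.294 CPM in HFS-fed Xbp1 fl/fl and 1.26, 1.34 and 0.613 CPM in HFS-fed Xbp1 LKO libraries. The genotypes did not overlap on either diet, its log2 fold change was 2.17 (adjusted p = 0.045) on chow and 1.92 (adjusted p = 0.051) on HFS, and the interval of its interaction, -1.88 to 1.38, was too wide to compare the diets. The 4 kinases of eIF2α had interactions of -0.11 (*Eif2ak1*, HRI), 0.29 (*Eif2ak2*, PKR), -0.20 (*Eif2ak3*, PERK) and 0.13 (*Eif2ak4*, GCN2), each with an interval within 1 log2 unit of 0. Of 10 tested UPR sensors and processing genes 3 were above 0 (median -0.19, -0.32 to -0.04 as libraries were left out), with *Ern1* (IRE1α) at -0.51 (-1.14 to 0.12) and the site-1 protease *Mbtps1* at -0.18 (-0.54 to 0.18).

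Among the ER protein genes that XBP1 controls, losses were called on both diets. Of 49 tested ER chaperone, translocation and ERAD genes, 16 fell on chow (3.02% of all genes) and 9 on HFS (2.16%), the list median of the genotype effect was -0.47 on chow and -0.50 on HFS, and the median interaction was -0.03, with 22 above 0. The chow-fed Xbp1 LKO libraries differed in this list: without library 2 the median interaction was 0.22 with 42 of 49 above 0, and without library 1 it was -0.14 with 20 above 0 and 9 below 0 at an unadjusted p under 0.05. The lowest median was -0.17 (without HFS-fed Xbp1 LKO library 1, 19 of 49 above 0), and it was also above 0 without single libraries of the other groups, none of which took it past 0.06. For 27 of the 49 the interval of the interaction lay within 1 log2 unit of 0, against 58.9% of all genes. The exceptions at an unadjusted p under 0.05 were *Ssr3* and *Ssr1*, subunits of the translocon-associated protein complex. *Ssr3* was at 278, 298 and 361 CPM in chow-fed Xbp1 fl/fl, 142 and 146 CPM in chow-fed Xbp1 LKO, 295, 265 and 254 CPM in HFS-fed Xbp1 fl/fl and 234, 176 and 178 CPM in HFS-fed Xbp1 LKO libraries, lower in Xbp1 LKO on both diets and more so on chow. It fell on chow (log2 fold change -1.11, adjusted p = 0.0053, interaction 0.64, SE 0.22, unadjusted p = 0.013), *Ssr1* fell on chow (log2 fold change -0.89, adjusted p = 0.0045, interaction 0.49, SE 0.16, unadjusted p = 0.013), and the signal peptidase gene *Sec11c* fell on chow (log2 fold change -1.44, adjusted p = 0.022, interaction 0.82, SE 0.39, unadjusted p = 0.060). Of the same translocon-associated complex, *Ssr2* fell alike on both diets, with log2 fold changes of -0.56 (adjusted p = 0.016) on chow and -0.42 (adjusted p = 0.038) on HFS, with an interval of -0.18 to 0.47. The chaperone gene *Dnajb9* had an interaction of 0.42 (-0.58 to 1.41).

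Of 13 RIDD targets, 5 fell on each diet (3.02% of all genes on chow and 2.16% on HFS) and 8 had an interaction above 0 (median 0.05). Their median ran from -0.05 (without chow-fed Xbp1 LKO library 2, 5 of 13 above 0) to 0.40 (without chow-fed Xbp1 LKO library 1, 11 of 13 above 0) as libraries were left out, and was below 0 without chow-fed Xbp1 fl/fl library 2, chow-fed Xbp1 LKO library 2, HFS-fed Xbp1 fl/fl library 2 or HFS-fed Xbp1 LKO library 1 or 3. *Dgat2*, the last enzyme of triglyceride synthesis, fell, with log2 fold changes of -1.64 (adjusted p = 0.0073) on chow and -1.89 (adjusted p = 0.0025) on HFS (interval of the interaction -0.98 to 0.50). *Bloc1s1*, the classic RIDD substrate, was at most 1.77 CPM in any library, with an interval of -1.91 to 2.05. *Sparc*, a matrix protein made by non-parenchymal cells, had an interaction of 1.39 (SE 0.60, unadjusted p = 0.041), *Pmp22* one of 2.53 (SE 1.21, unadjusted p = 0.060) at counts of 1 to 16 per library, and the pericentral cytochrome *Cyp2e1* one of -0.53 (SE 0.30, unadjusted p = 0.11).

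Genes called on both diets were ranked by how closely their interaction was bounded. By the narrowest intervals of the interaction, these were *Washc2*, *Slc35f5*, *Agrn*, *Txndc15*, *Pcbp2*, *Smim14*, *Ssr2*, *Dpagt1*, *Gorasp2*, *Preb*, *Cadps2* and *Palmd*. *Dpagt1*, which makes the first lipid-linked sugar of N-glycosylation, was at 39.3, 39.6 and 38.2 CPM in chow-fed Xbp1 fl/fl, 26.1 and 26.8 CPM in chow-fed Xbp1 LKO, 42.9, 39.3 and 39.3 CPM in HFS-fed Xbp1 fl/fl and 30.5, 24.5 and 24.5 CPM in HFS-fed Xbp1 LKO libraries. The loss was close to equal, with an interaction of -0.05 (-0.38 to 0.28). *Preb* (SEC12), which starts COPII coat assembly, fell, with log2 fold changes of -0.47 (adjusted p = 0.045) on chow and -0.57 (adjusted p = 0.013) on HFS (interaction -0.10, interval -0.45 to 0.24), and *Txndc15*, a thioredoxin-domain protein, with log2 fold changes of -0.46 (adjusted p = 0.031) and -0.43 (adjusted p = 0.026), also fell (interaction 0.02, interval -0.28 to 0.33). *Slc35f5* and *Smim14* came nearest to a difference, at 0.27 (unadjusted p = 0.052) and 0.29 (unadjusted p = 0.059). *Washc2* (-0.20) and *Palmd* (-0.10) rose on both diets, and *Agrn* (-0.02), *Pcbp2* (-0.08), *Gorasp2* (0.16) and *Cadps2* (0.18) fell on both.

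The largest genotype effects shared by the diets included transcripts at low levels in Xbp1 fl/fl hepatocytes, and there the interval of the interaction was wide. *Cav1*, the caveolar coat protein, was at 1.77, 0.520 and 0.747 CPM in chow-fed Xbp1 fl/fl, 30.0 and 34.4 CPM in chow-fed Xbp1 LKO, 1.48, 4.94 and 1.18 CPM in HFS-fed Xbp1 fl/fl and 34.6, 94.7 and 36.5 CPM in HFS-fed Xbp1 LKO libraries. Its interaction was -0.53 (-2.44 to 1.38). *Nupr1*, a stress-induced chromatin protein downstream of ATF4, was at 0.221, 0.289 and 0.348 CPM in chow-fed Xbp1 fl/fl, 10.5 and 47.3 CPM in chow-fed Xbp1 LKO, 0.143, 0.153 and 0.196 CPM in HFS-fed Xbp1 fl/fl and 3.79, 4.87 and 21.4 CPM in HFS-fed Xbp1 LKO libraries (interval -4.64 to 3.17). The imprinted non-coding RNA *Meg3* rose on both diets, from 0.772, 0.520 and 0.797 CPM to 60.5 and 49.4 CPM on chow and from 0.524, 0.458 and 0.196 CPM to 13.4, 2.79 and 21.9 CPM on HFS (interval -3.83 to 1.26), as did its neighbour *Rian* (interval -2.81 to 4.36). Both Xbp1 LKO ranges of *Meg3* lay above those of the controls, and the chow-fed libraries were the higher. *Grm8*, a glutamate receptor, had counts of 36, 48 and 43 in chow-fed Xbp1 fl/fl, 0 and 0 in chow-fed Xbp1 LKO, 30, 67 and 21 in HFS-fed Xbp1 fl/fl and 8, 0 and 1 in HFS-fed Xbp1 LKO libraries. *Vmn2r3*, a vomeronasal receptor gene of a family with similar members, had no read in the 6 Xbp1 fl/fl libraries and counts of 43 and 193 in chow-fed and 66, 164 and 191 in HFS-fed Xbp1 LKO libraries. With groups at 0, no size of the interaction is given for *Grm8* and *Vmn2r3*. The intervals of *Rap1gap2*, *Slc34a2*, *Tuba8*, *Pkp1*, *Lysmd2* and *Arhgef2*, which rose on both diets, all included 0 and were over 3 log2 units wide.

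**Figure D4:**
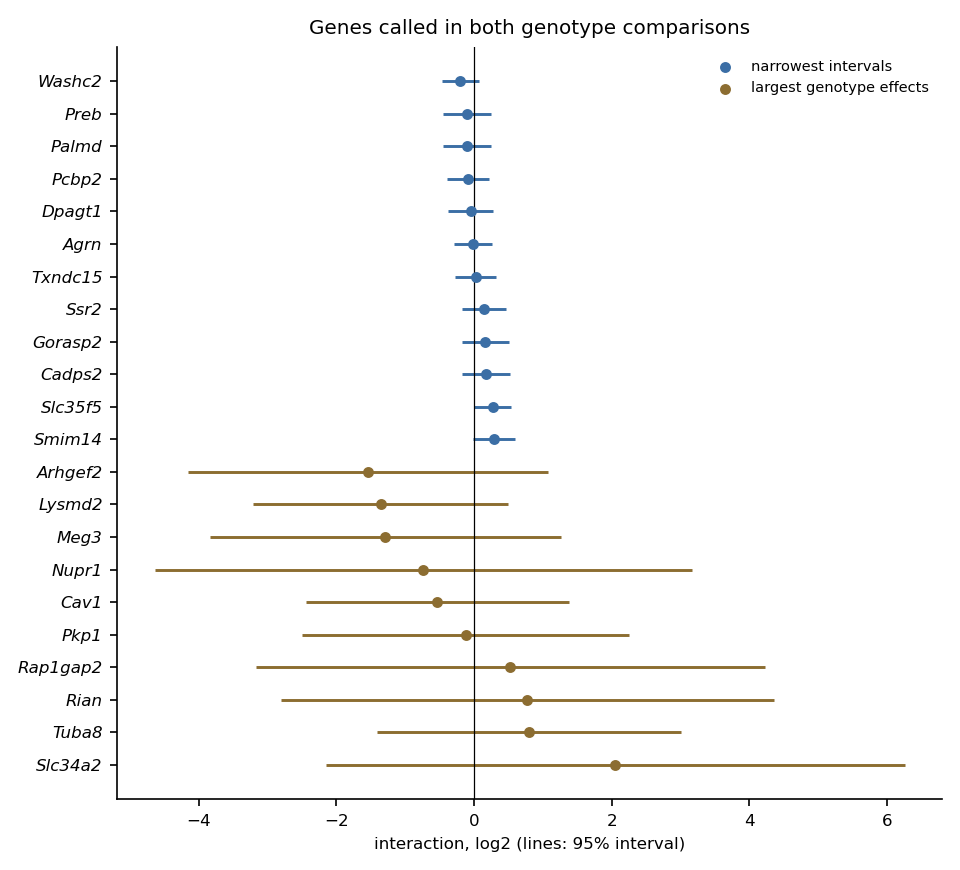
Interaction (log2, genotype effect on HFS minus on chow) with its 95% interval for 22 genes called for genotype on both diets; blue marks those with the narrowest intervals and brown those with the largest genotype effects. The blue intervals lie within 1 log2 unit of 0 and the brown ones span several units; *Vmn2r3* and *Grm8*, with no read in at least 1 group, are not drawn.

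Plasma protein and complement genes had medians close to 0. Of 37 plasma protein genes 20 were above 0 (median 0.05), 9 fell on chow (3.02% of all genes) and 8 on HFS (2.16%), and the interval lay within 1 log2 unit of 0 in 29. The median of the plasma protein list ran from -0.06 (without chow-fed Xbp1 LKO library 2, 15 of 37 above 0) to 0.21 (without chow-fed Xbp1 LKO library 1, 27 of 37 above 0) as libraries were left out, and was below 0 without chow-fed Xbp1 fl/fl library 2, chow-fed Xbp1 LKO library 2, HFS-fed Xbp1 fl/fl library 1 or HFS-fed Xbp1 LKO library 1. *Alb*, which encodes albumin and whose promoter drives the Cre used here, alone of them had an unadjusted p under 0.05. It was at 86732, 113601 and 119367 CPM in chow-fed Xbp1 fl/fl, 34259 and 14021 CPM in chow-fed Xbp1 LKO, 71454, 64343 and 82040.2 CPM in HFS-fed Xbp1 fl/fl and 51478, 29578 and 38973 CPM in HFS-fed Xbp1 LKO libraries. The Xbp1 LKO libraries were lower on both diets and lowest in chow-fed library 2, with log2 fold changes of -2.14 (adjusted p = 0.011) on chow and -0.86 (adjusted p = 0.18) on HFS and an interaction of 1.28 (SE 0.48, 95% interval 0.23 to 2.33, unadjusted p = 0.021). Leaving out each library in turn moved the interaction of *Alb* over 0.78 to 2.06, and its largest unadjusted p was 0.071. *F9* (0.35), *Gc* (0.40) and the hepatocyte marker *Hpd* (-0.66, SE 0.29, unadjusted p = 0.044) followed in their lists.

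Of complement genes, 13 of 25 were above 0 (median 0.01), 7 falling on chow (3.02% of all genes) and 5 on HFS (2.16%), and the median ran from -0.06 (without HFS-fed Xbp1 fl/fl library 1, 11 of 25 above 0) to 0.15 (without HFS-fed Xbp1 fl/fl library 2, 17 of 25 above 0) as libraries were left out, below 0 without chow-fed Xbp1 fl/fl library 1 or 2, chow-fed Xbp1 LKO library 1, HFS-fed Xbp1 fl/fl library 1 or 3 or HFS-fed Xbp1 LKO library 1 or 3. *Mbl2*, mannose-binding lectin, was at 389.6, 502 and 493 CPM in chow-fed Xbp1 fl/fl, 281 and 273 CPM in chow-fed Xbp1 LKO, 362, 299 and 404 CPM in HFS-fed Xbp1 fl/fl and 417, 352 and 312 CPM in HFS-fed Xbp1 LKO libraries. It fell on chow (log2 fold change -0.74, adjusted p = 0.040) and overlapped between genotypes on HFS (interaction 0.76, SE 0.24, unadjusted p = 0.0084). *Cfi* fell on chow (log2 fold change -0.89, adjusted p = 0.015, interaction 0.40, interval -0.09 to 0.89), and *Cd59a* had an interaction of 0.33 (-0.02 to 0.68). Acute phase genes were below 0 in 21 of 24 (median -0.35), with no gene at an unadjusted p under 0.05. Their levels differed widely between replicates: the mean log2 expression of the list was 1.46, 0.15 and -0.79 for Xbp1 fl/fl libraries on chow and -0.93, 1.55 and -0.62 on HFS, and leaving out each library in turn moved the median over -0.84 to 0.39, and it was above 0 without chow-fed Xbp1 LKO library 2 (0.14) or HFS-fed Xbp1 fl/fl library 2 (0.39). *Orm3* (-5.34 to 0.89), *Lbp* (-2.46 to 0.54) and *Serpina3m* (-0.30 to 0.93) all had intervals of the interaction that included 0.

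NRF2 antioxidant genes leaned above 0. Of 20 NRF2 antioxidant genes 18 were above 0 (median 0.30), 3 of them at an unadjusted p under 0.05 (3.69% of all genes in that direction). *Gclc*, the catalytic subunit of glutathione synthesis, was at 214, 416 and 375 CPM in chow-fed Xbp1 fl/fl, 269 and 261 CPM in chow-fed Xbp1 LKO, 243, 213 and 253 CPM in HFS-fed Xbp1 fl/fl and 289, 378 and 450.4 CPM in HFS-fed Xbp1 LKO libraries. The genotypes overlapped on chow and not on HFS (interaction 1.00, SE 0.34, unadjusted p = 0.014). *Nfe2l2*, which encodes NRF2, rose on HFS (log2 fold change 0.59, adjusted p = 0.019) with a log2 fold change of 0.16 (adjusted p = 0.58) on chow (interaction 0.44, SE 0.18, unadjusted p = 0.031), and *Ephx1*, microsomal epoxide hydrolase, had an interaction of 0.89 (SE 0.33, unadjusted p = 0.021). Leaving out each library in turn gave a list median of 0.21 to 0.42, with 1 (without HFS-fed Xbp1 LKO library 2) to 6 genes (without HFS-fed Xbp1 LKO library 1) at an unadjusted p under 0.05.

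Among 29 nuclear receptor and xenobiotic enzyme genes 17 were above 0 (median 0.06), with 3 above and 2 below 0 at an unadjusted p under 0.05 (3.69% and 2.44% of all genes). As libraries were left out the median ran from -0.07 (without chow-fed Xbp1 LKO library 2, 13 of 29 above 0) to 0.41 (without chow-fed Xbp1 LKO library 1, 19 of 29 above 0), and it was below 0 without chow-fed Xbp1 LKO library 2 or HFS-fed Xbp1 LKO library 2. The 2 below 0 were *Por*, the electron donor of the microsomal cytochromes (-1.07, SE 0.38, unadjusted p = 0.016), and the nuclear receptor gene *Ppard* (-0.47, SE 0.20, unadjusted p = 0.038), both named after their values were seen. *Gstm3*, a glutathione S-transferase with close family members, rose on HFS (log2 fold change 2.45, adjusted p = 0.0027), from 33.5, 25.1 and 15.8 CPM to 105, 113 and 189 CPM, and ran from 38.1, 60.0 and 43.3 CPM to 123 and 78.0 CPM on chow (interaction 1.36, SE 0.46, unadjusted p = 0.013). *Gsta1* had an interaction of 3.46 (SE 0.89, unadjusted p = 0.0023) at no more than 2.83 CPM in any library. Of 27 growth hormone and sex-biased genes 14 were above 0 (median 0.04), with 1 above and 3 below 0 at an unadjusted p under 0.05 (3.69% and 2.44% of all genes). Their median ran from -0.14 (without HFS-fed Xbp1 fl/fl library 3, 13 of 27 above 0) to 0.31 (without chow-fed Xbp1 LKO library 1, 16 of 27 above 0) as libraries were left out, below 0 without chow-fed Xbp1 fl/fl library 3, chow-fed Xbp1 LKO library 2, HFS-fed Xbp1 fl/fl library 3 or HFS-fed Xbp1 LKO library 1 or 2. *Cyp2b10*, the standard target of the nuclear receptor CAR, was at 3.75, 5.95 and 2.24 CPM in chow-fed Xbp1 fl/fl, 5.72 and 3.23 CPM in chow-fed Xbp1 LKO, 7.34, 23.3 and 20.1 CPM in HFS-fed Xbp1 fl/fl and 4.24, 0.892 and 2.38 CPM in HFS-fed Xbp1 LKO libraries. It fell in Xbp1 LKO hepatocytes on HFS (log2 fold change -2.76, SE 0.56, adjusted p = 0.021), with a log2 fold change of 0.18 (SE 0.62, adjusted p = 0.91) on chow and an interaction of -2.94 (SE 0.82, 95% interval -4.73 to -1.15, unadjusted p = 0.0040). *Cyp2b9*, a female-biased relative, rose on chow (log2 fold change 3.73, adjusted p = 0.034), from 0.496, 0.231 and 0.0498 CPM to 3.92 and 2.93 CPM, and stood at 10.4, 3.26 and 21.3 CPM and 11.5, 5.99 and 13.7 CPM in HFS-fed Xbp1 fl/fl and Xbp1 LKO libraries (interaction -3.89, SE 1.04, unadjusted p = 0.0031). Set beside *Cyp2a4*, these 3 cytochromes each had a different order of groups, and DESeq2 called only *Cyp2a4* of them.

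Immediate early genes were below 0 in 15 of 24 (median -0.28), 1 above and 3 below 0 having an unadjusted p under 0.05 (3.69% and 2.44% of all genes). Chow-fed Xbp1 LKO library 2 decided the sign: without it the median was 0.18 with 14 of 24 above 0. Without any other single library it stayed below 0. *Myc* was at 4.96, 6.18 and 6.57 CPM in chow-fed Xbp1 fl/fl, 53.2 and 42.6 CPM in chow-fed Xbp1 LKO, 2.48, 18.2 and 3.67 CPM in HFS-fed Xbp1 fl/fl and 26.0, 5.62 and 5.90 CPM in HFS-fed Xbp1 LKO libraries. It rose on chow (log2 fold change 3.02, SE 0.77, adjusted p = 0.049), its log2 fold change on HFS was 0.63 (SE 0.70, adjusted p = 0.73) with 1 high library in each genotype, and the interaction was -2.39 (SE 1.04, unadjusted p = 0.041). *Zfp36*, an mRNA-destabilising protein, had an interaction of -0.63 (SE 0.26, unadjusted p = 0.034) and the growth inhibitor *Btg1* one of 0.60 (SE 0.27, unadjusted p = 0.049). *Ier2*, named after its values were seen, had an interaction of -0.84 (SE 0.38, unadjusted p = 0.050). For 24 NF-κB genes the median was -0.05, 11 above 0, and it ran from -0.12 (without chow-fed Xbp1 fl/fl library 1, 9 of 24 above 0) to 0.07 (without chow-fed Xbp1 fl/fl library 3, 13 of 24 above 0) as libraries were left out, above 0 without chow-fed Xbp1 fl/fl library 3, chow-fed Xbp1 LKO library 2, HFS-fed Xbp1 fl/fl library 2 or 3 or HFS-fed Xbp1 LKO library 1. *Relb*, an NF-κB subunit, rose on HFS (log2 fold change 2.25, adjusted p = 0.0037), from 0.476, 0.356 and 0.392 CPM to 2.20, 2.12 and 1.57 CPM, and ran from 0.386, 0.636 and 0.448 CPM to 1.02 and 0.874 CPM on chow (interaction 1.30, SE 0.48, unadjusted p = 0.021), *Cebpd* had an interaction of -1.25 (SE 0.46, unadjusted p = 0.019), and *Tnfaip3* one of 0.85 (SE 0.39, unadjusted p = 0.050).

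Apoptosis regulators had a median of -0.04 (-0.13 to 0.06 as libraries were left out, above 0 without chow-fed Xbp1 fl/fl library 2 or 3, chow-fed Xbp1 LKO library 2, HFS-fed Xbp1 fl/fl library 2 or HFS-fed Xbp1 LKO library 1), 16 of 34 above 0, and in 24 of 34 the interval lay within 1 log2 unit of 0. *Endog* had an interaction of -0.84 (SE 0.33, unadjusted p = 0.025) and *Trp53* one of -0.46 (SE 0.20, unadjusted p = 0.040). *Bax*, the pore-forming BCL-2 family member, had log2 fold changes of 0.63 (adjusted p = 0.071) on chow and 0.71 (adjusted p = 0.037) on HFS with an interaction of 0.08 (-0.46 to 0.61), and the values for *Bak1* and *Bcl2l1* (BCL-XL) were -0.14 (-0.79 to 0.52) and -0.15 (-0.66 to 0.36). Glucose and fructose metabolism genes had a median of 0.06, 15 of 25 above 0, with *Irs2*, an insulin receptor substrate, at -0.82 (SE 0.36, unadjusted p = 0.041), *Igfbp1* at -1.51 and *Tkfc* at 0.45. The glucose and fructose median ran from -0.13 (without chow-fed Xbp1 LKO library 2, 8 of 25 above 0) to 0.28 (without chow-fed Xbp1 LKO library 1, 16 of 25 above 0) as libraries were left out, the latter with 6 genes above and 1 below 0 at an unadjusted p under 0.05. Of 18 clock genes 14 were above 0 (median 0.12), none at an unadjusted p under 0.05, and *Nr1d2* (0.29), *Bhlhe40* (0.24) and *Arntl* (-1.02) had intervals that included 0. The clock median also turned with the chow-fed Xbp1 LKO libraries, from -0.10 (without chow-fed Xbp1 LKO library 2, 7 of 18 above 0) with 2 genes below 0 at an unadjusted p under 0.05 to 0.35 (without chow-fed Xbp1 LKO library 1, 15 of 18 above 0) with 7 above and 1 below 0 at that p.

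**Figure D5:**
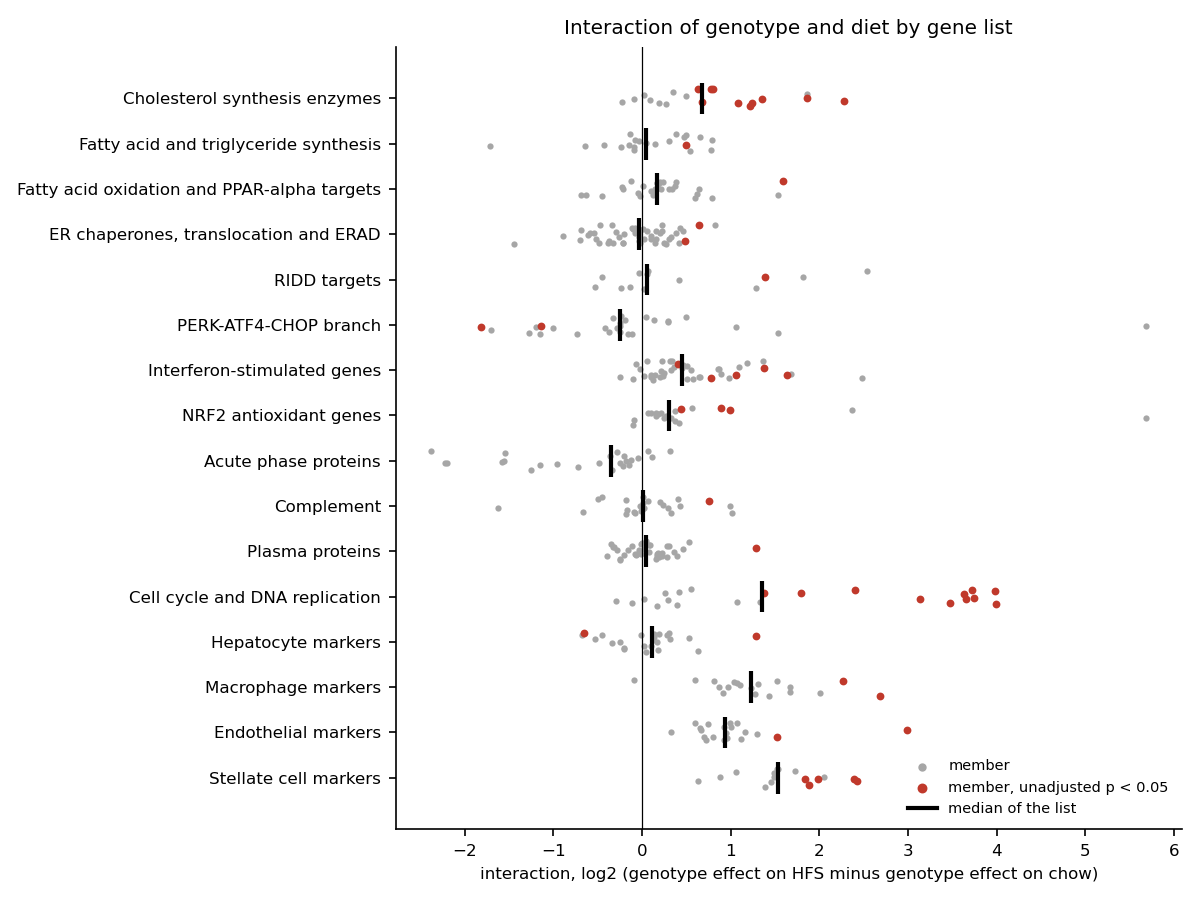
Interaction (log2, genotype effect on HFS minus on chow) of the tested members of 16 gene lists; each point is a gene, red points have an unadjusted p under 0.05, and the black bar is the list median. The medians of cholesterol synthesis (0.68), cell cycle (1.35), stellate cell (1.53), macrophage (1.23) and endothelial (0.93) lists lie farthest above 0. Without chow-fed Xbp1 fl/fl library 1 the last 3 are 0.63, 0.25 and 0.45. The medians of acute phase (-0.35), PERK, ATF4 and CHOP (-0.25) and ER chaperone, translocation and ERAD genes (-0.03) lie below 0. Without chow-fed Xbp1 LKO library 2 these lie above 0 (0.14, 0.22 and 0.22).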

How the data were processed

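RNA was measured in 11 hepatocyte libraries, grouped by the genotype and diet in their labels. The deposited values are whole-number counts per Ensembl gene, made by the authors before normalization, 1 table per library. The submitters' processing notes name cutadapt 1.13, STAR, HTSeq 0.6.1p1, DESeq2 and mm10, while the study's methods describe kallisto and DESeq2, and the labels and methods name different library kits, so the counting of multi-mapping reads and of strand is uncertain. Of 54232 gene IDs, 54079 matched GENCODE M21 (GRCm38) names. No total or unassigned line was used as a gene.

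Genes were kept by filterByExpr with a minimum count of 10 (13303 genes) and tested with edgeR 4.0.16 in R 4.3.3: TMM factors, a quasi-likelihood fit of the 4 groups over all 11 libraries, an F test for each contrast (two-sided in effect) and Benjamini-Hochberg adjustment at 0.05. CPM values use TMM-scaled totals. Intervals are 95% and come from the same fit. Log2 CPM for list means and components used a prior count of 2. The procedure was tested on simulated data. DESeq2 1.42.0, limma 3.58.1, other scalings, filters, a replicate block and leaving out each library served as alternatives. Libraries from separate mice or pools are the replicates, and p-values measure the spread between them. Total counts of 19191032 to 23888401 limit precision at low levels, and replicates differed beyond counting noise (chi-square per degree of freedom 25.6 to 93.7).

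The named genes were the 12 with an interaction above 0 and the 12 below 0 with the smallest p (mean of at least 1 CPM), every gene called by DESeq2, the 3 members with the smallest p in each list described, genes that the study names, and, among genes called on both diets with a mean of at least 1 CPM, the 12 with the narrowest interval and the 12 with the largest genotype effect. Lists and genes were chosen with earlier results of these data known, so they are not independent evidence. Some genes that this rule selects are counted in their lists but not reported here by name. None of 13 mitochondrially encoded genes passed the filter, and that list gives no result. Of the genes the study names, *Acta2* and *Bcl2* were not tested for low counts. Figures used matplotlib 3.10.9 and pandas 2.3.3 in Python 3.11.15.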

Additional observations from a re-analysis of the deposited data

Results flagged for a closer look

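For 15 of the named genes every Xbp1 LKO library lay on one side of every Xbp1 fl/fl library on chow and on the other side on HFS. That a gene meets this criterion is not itself a test, and the difference between the diets was not tested beyond the interaction already given, which passed no adjusted threshold in edgeR. Over all 13303 genes, 115 (0.864%) met it, a share of about the size that a random order of so few libraries would give. In 7 of the 15 the Xbp1 LKO libraries were lower on chow and higher on HFS, with interactions (log2) of 1.86 for *Hmgcs1*, 1.36 for *Fdft1*, 1.85 for *Frmd4a*, 1.63 for *Map4k4*, 0.96 for *Rtn4*, 0.69 for *Cars* and 0.64 for *Sh3bgrl*. In the other 8 they were higher on chow and lower on HFS, with interactions of -1.82 for *Chac1*, -0.92 for *Dqx1*, -0.92 for *Ginm1*, -0.89 for *Fam3a*, -0.72 for *Dirc2*, -0.70 for *Gne*, -0.68 for *Vps52* and -0.41 for *Nr1h2*. Of these 15 genes, DESeq2 called 11 and did not call *Frmd4a*, *Vps52*, *Fam3a* and *Nr1h2*. Most of these calls depended on single libraries. Among the 11 DESeq2 fits without 1 library, *Sh3bgrl* was called in 1, *Dqx1* in 2, *Map4k4* in 3 and *Fdft1* in 4. *Cars* and *Gne* were called in 5, *Rtn4* in 6, *Chac1* in 8, *Dirc2* in 10, and *Hmgcs1* and *Ginm1* in all 11. All of them were among the genes with small interaction p-values, so the criterion and the p-values are not independent.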

How the results depend on the processing

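The count of genes called for the interaction (0 in edgeR with the filter) depended on the tool and the filter: DESeq2 called 29, DESeq2 without the filter 31, edgeR without the filter 269 of 26016 genes (161 above and 108 below 0) and the newer quasi-likelihood fit without the filter 1. Of those 269 genes, 267 were among the 13303, and the estimated prior degrees of freedom were 311 without the filter against 4.39 with it. It stayed at 0 with limma-voom (779 genes at an unadjusted p under 0.05), voom with quality weights (798), robust edgeR (803), RLE factors (823), library totals (820), a minimum count of 100 (563), the newer fit (837) and in all 11 fits without 1 library (668 to 1277). The 11 DESeq2 fits without 1 library, added after seeing the data as were the newer fit and DESeq2 without the filter, called 10 (without HFS-fed Xbp1 fl/fl library 3) to 133 genes (without chow-fed Xbp1 LKO library 1). The others called 51, 14 and 49 without chow-fed Xbp1 fl/fl libraries 1, 2 and 3, 13 without chow-fed Xbp1 LKO library 2, 14 and 38 without HFS-fed Xbp1 fl/fl libraries 1 and 2, and 24, 29 and 25 without HFS-fed Xbp1 LKO libraries 1, 2 and 3.

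Genotype calls on chow, 632, moved to 1130 with DESeq2, 1115 with DESeq2 without the filter, 410 with voom quality weights, 3000 with library totals and 1507 without the filter, and on HFS, 543, to 1007, 981, 1101, 1483 and 1438. Leaving out each library gave 69 to 762 on chow, with 69 without chow-fed Xbp1 LKO library 2 and 326 without chow-fed Xbp1 fl/fl library 2. On HFS it gave 184 to 662, with 184 and 285 without HFS-fed Xbp1 LKO libraries 2 and 3, and 239, 275 and 230 without HFS-fed Xbp1 fl/fl libraries 1, 2 and 3. A fit without one of the 2 chow-fed Xbp1 LKO libraries assumes that the other varies like the rest. The causes were not tested. With the replicate block the calls were 0 for the interaction (725 at an unadjusted p under 0.05), 455 on chow and 412 on HFS, and with another numbering of the replicates 0, 488 and 429. Deviations of same-numbered libraries had a mean correlation of -0.03 over 15 pairs (-0.32 to 0.28), which gave no sign that the replicate numbers pair the libraries. With 2 or 3 libraries per group, deviations from the group mean depend on each other, so this cannot exclude a pairing. Of the 164 named genes, 80 had an unadjusted p under 0.05 for the interaction. None of these 80 changed the sign of its interaction in any alternative fit, and 29 of them lost that p without some single library. The sign of the other 84 was not checked in this way. All 80 were taken at a small p, and the alternative fits reuse the same libraries. A kept sign was therefore likely beforehand and is not independent evidence. With 2 chow-fed Xbp1 LKO libraries and a median SE of 0.27, interactions under about 1 log2 unit were often not resolved.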
